A study of Rattus norvegicus with 4 samples.

Results

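The data described here are the glucocorticoid receptor (GR) and IgG chromatin immunoprecipitation sequencing (ChIP-seq) libraries made from rat hippocampus after the low dose of corticosterone, 300 µg/kg. They are 2 of the 4 libraries of the series, and their members are all reads of both libraries on chromosomes 1 to 20 and X, positioned on the rat genome build rn4. The animals were male Sprague-Dawley rats, 8 weeks old, whose adrenal glands had been removed 3 days earlier. They received an intraperitoneal injection of a complex of corticosterone with hydroxypropyl-cyclodextrin and were killed 1 hour later. Sheared chromatin of 6 hippocampal hemispheres of a group was pooled and then divided, so that the GR library (antibody H-300) and the library with normal rabbit IgG came from pooled tissue of the same treatment. The other 2 libraries, GR and IgG after the high dose of 3000 µg/kg, served as an independent readout. Adrenalectomized animals without an injection were not analysed here, and each group held 1 library, so that every p-value and interval below compares reads of libraries and not doses or antibodies as conditions.

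GR is a nuclear receptor that rests in the cytoplasm in complex with chaperones. When it binds a glucocorticoid it moves to the nucleus and binds DNA at glucocorticoid response elements, short imperfect palindromes, where it activates or represses genes nearby. The hippocampus holds GR together with the mineralocorticoid receptor, which binds corticosterone with higher affinity and recognizes the same elements, so that occupancy of GR in this tissue is known to follow the rise of the hormone under stress and at the daily peak. In pooled tissue, binding in more cells and stronger binding per cell cannot be told apart.

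Both libraries of the low dose held 468802 aligned reads of 36 bases, and this equal total was kept as the scale. On chromosomes 1 to 20 and X lay 459136 GR reads and 458480 IgG reads. A plus-strand read and its minus-strand partner, with 5′ ends separated by 50 to 140 bases, were counted once, as a fragment. The reason was that in all 4 libraries the number of pairs peaked within this range. That they are both ends of an amplified fragment is an assumption, which the labels do not describe. In the GR library 31286 pairs lay 90 to 99 bases apart, against 475 at 180 to 189 bases. In the GR library of the high dose the corresponding numbers were 30358 and 3076. At the edge of the range its numbers were close to those outside, with 6402 pairs at 50 to 59 bases and 5589 at 40 to 49. Merging left 374255 GR and 364468 IgG fragments, or 138 and 134 fragments per Mb. At this depth an average stretch of 1 kb held less than 1 fragment, which limits what could be detected to sites with several fragments.

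Reads of the GR library were more often piled up than those of the IgG library, and this was seen without choosing any site. The chromosomes were divided into tiles of 300 bases. A tile with at least 1 fragment was about equally frequent in both, with 358427 tiles for GR and 352599 for IgG, a ratio of 1.02 (exact 95% interval 1.01 to 1.02, counting error only, as for all intervals below). Tiles with at least 2 fragments numbered 13827 for GR and 11139 for IgG (ratio 1.24, 1.21 to 1.27). Tiles with at least 3 fragments numbered 1287 and 546 (ratio 2.36, 2.13 to 2.61). Tiles with at least 4 fragments numbered 363 and 82 (ratio 4.43, 3.47 to 5.70). The ratio of GR to IgG tiles thus rose with the number of fragments asked of a tile. The excess of GR was not confined to piles. Tiles with exactly 1 fragment numbered 344600 for GR and 341460 for IgG, and those with exactly 2 numbered 12540 and 10593. At the high dose the corresponding numbers of tiles with at least 4 fragments were 3492 for GR and 150 for IgG.

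**Figure D1:**
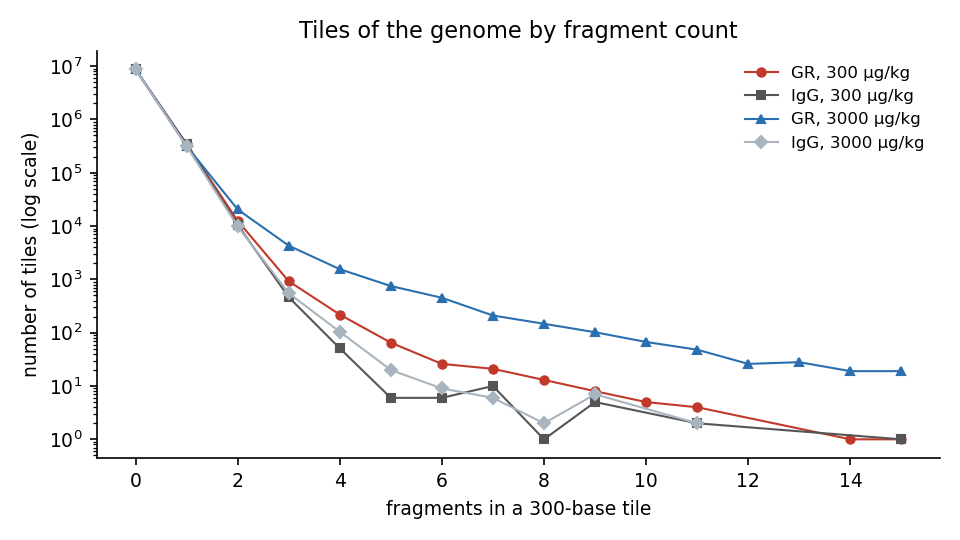
Number of 300-base tiles (log scale) by the fragments they held, up to 15, in each of the 4 libraries; points at 0 tiles are left out. The GR library at 300 µg/kg runs with both IgG libraries at 1 fragment and lies above them at 2 to 8, with 363 tiles at 4 or more fragments against 82 for its IgG library.

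Sites occupied at the low dose were taken as regions in which GR fragments exceeded IgG. A 300-base window was called when it held 4 or more fragments with an exact Poisson p no higher than 1e-05, the expected count being the largest of the genome mean and the IgG density in the surrounding 1, 5 and 10 kb, and overlapping windows were merged. Of all windows, 0.00262% were called, which gave 334 regions. The same rule with the libraries exchanged, IgG as signal and GR as background, called 3.05e-04% of windows and gave 38 regions, 11.4% of the number for GR. The 334 regions covered 138200 bases, or 0.00508% of the chromosomes, and held 0.478% of GR fragments. The numbers rest on the merging of pairs: counting every read gave 1510 GR regions, which overlapped 330 of the 334, but 954 regions (63.2% as many) with the libraries exchanged.

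Most of the occupied regions were weak. Of the 334 regions, 178 held 4 GR fragments, the minimum, 156 held 5 or more and 17 held 10 or more, and the highest count was 16. IgG fragments of the same dose were absent from 308 regions (92.2%), numbered 1 in 20 regions and reached at most 3. A count of 0 allows up to 3 fragments. Since low IgG was part of the rule, these counts describe the regions and do not test them.

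The strongest low-dose site lay at chr1:77410101-77410700, with 15 GR and 0 IgG fragments at the low dose and 36 GR and 1 IgG fragment at the high dose (exact Poisson p = 3.40e-31 at the low dose). Its 22 GR reads fell into 8 on the plus strand and 14 on the minus strand. At chr1:226342801-226343400 the GR library held 14 fragments and IgG 0, against 33 and 1 at the high dose. The region chr10:55856201-55856700 held the most GR fragments, 16 against 1 IgG fragment, and 28 against 1 at the high dose. All 3 sites thus held at most 1 IgG fragment in either IgG library, which the rule favoured at the low dose.

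The sites ranked 4 to 7 held 9 to 10 fragments, with centres spread over 59 to 149 bases (median over all regions 146). The region chr18:5426301-5426800 held 10 GR and 0 IgG fragments, and 19 and 1 at the high dose. At chr5:74011501-74012000 the GR library held 10 fragments, whose centres lay within 59 bases, and no IgG fragment was found there in either IgG library. The region chr3:119237001-119237500 held 9 GR fragments and 0 of IgG, with 9 reads on each strand, and 21 and 1 fragments at the high dose. Wider piles were found at chr20:27270901-27271400, where the centres of 14 GR fragments (1 IgG fragment) spread over 304 bases. At chr11:77875501-77876000 the centres of 13 GR fragments (0 IgG fragments) spread over 225 bases.

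Over the 25 regions of lowest p, the GR library at the low dose held 7 to 16 fragments (median 10) and its IgG library 0 in 21 regions and 1 in the other 4. In the libraries that did not choose them, all 25 held more GR than IgG fragments. The GR library at the high dose held 7 to 45 fragments in them (median 21.0) and its IgG library 0 to 3 (median 1.00). GR fragments were more numerous at the high dose in 23 of the 25, whereas over all 334 regions they were more numerous in 202, fewer in 114 and equal in 18. The low-dose counts had chosen and ranked the regions, which favours high values on that side, so these numbers do not measure a difference between doses. The exceptions among the 25 were chr15:106170801-106171300, with 10 fragments at the low dose and 7 at the high dose (3 for IgG), and chr3:151609701-151610200, with 10 at each dose.

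**Figure D2:**
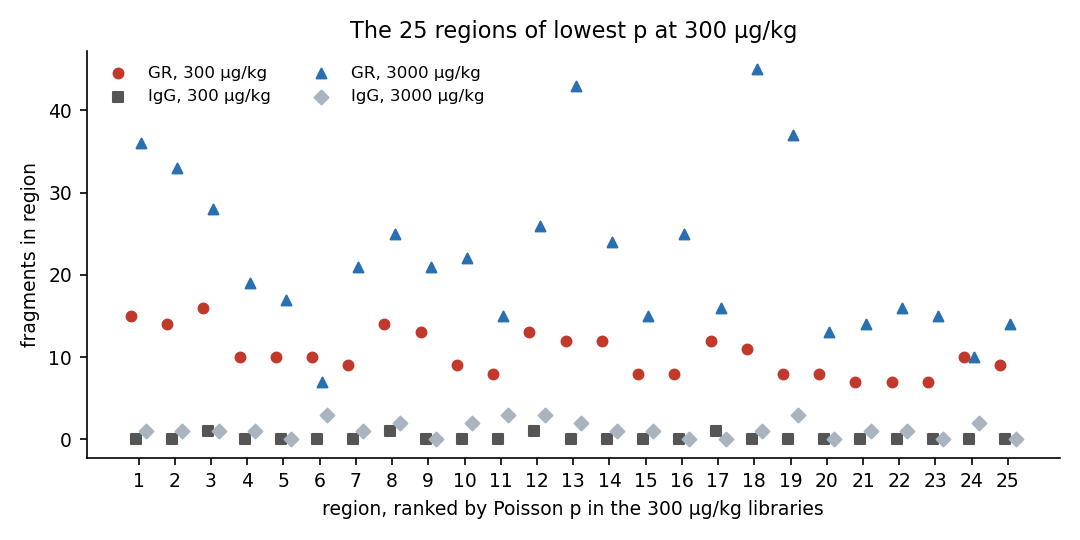
Fragments (vertical axis) in each of the 25 regions of lowest Poisson p at 300 µg/kg (horizontal axis, by rank) in the 4 libraries, 1 point per library. Both IgG libraries stay at 0 to 3, the GR library at 300 µg/kg lies between 7 and 16, and that at 3000 µg/kg between 7 and 45.

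Several of the strong sites stood side by side. Of the 313 distances between neighbouring regions, 8 were at most 20 kb, 5 were at most 5 kb, and the median was 3.52 Mb. On chromosome 8 a run of 3 regions within 20 kb all belonged to the 25 of lowest p: chr8:52001201-52001700 with 11 GR and 0 IgG fragments, chr8:52015001-52015500 with 13 and 1, and chr8:52017501-52018100 with 12 and 1. At the high dose the first of them held the most, 45 GR fragments against 1 of IgG, whereas the other two held 26 against 3 and 16 against 0. Beside the site with 16 fragments on chromosome 10 lay a weak region at chr10:55858501-55858900, with 4 GR fragments at the low dose, 17 at the high dose and 0 and 2 of IgG. The closest neighbours, chr1:226414401-226414800 and chr1:226415201-226415700, had centres 850 bases apart and held 5 and 6 GR fragments, with 0 of IgG in both IgG libraries.

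Averaged over the regions, fragments piled up close to the centre. Within 100 bases of the median fragment position of a region the GR library at the low dose held 23.6 fragments per kb and region, from 100 to 200 bases away 2.69 and from 500 to 1000 bases away 0.383. The rule asked for 4 or more fragments in a 300-base window, so that a narrow pile was largely set by the choice. These same fragments also placed the centre, which set its height. The GR library at the high dose, which had no part in placing it, gave 37.3 fragments per kb and region within 100 bases, 5.76 from 100 to 200 bases and 0.853 from 500 to 1000 bases. Its GR to IgG ratio fell from 18.7 (15.7 to 22.5) within 100 bases to 7.57 (4.79 to 12.6) at 200 to 300 bases and 3.96 (3.05 to 5.20) at 500 to 1000 bases. Summed over the regions, GR fragments of the high dose were thus densest within 100 bases of the low-dose centres. Offsets of single regions were not measured, and 47 regions held 0 GR fragments at the high dose. The IgG library of the high dose was also densest there, with 1.99 fragments per kb and region against 0.216 at 500 to 1000 bases.

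**Figure D3:**
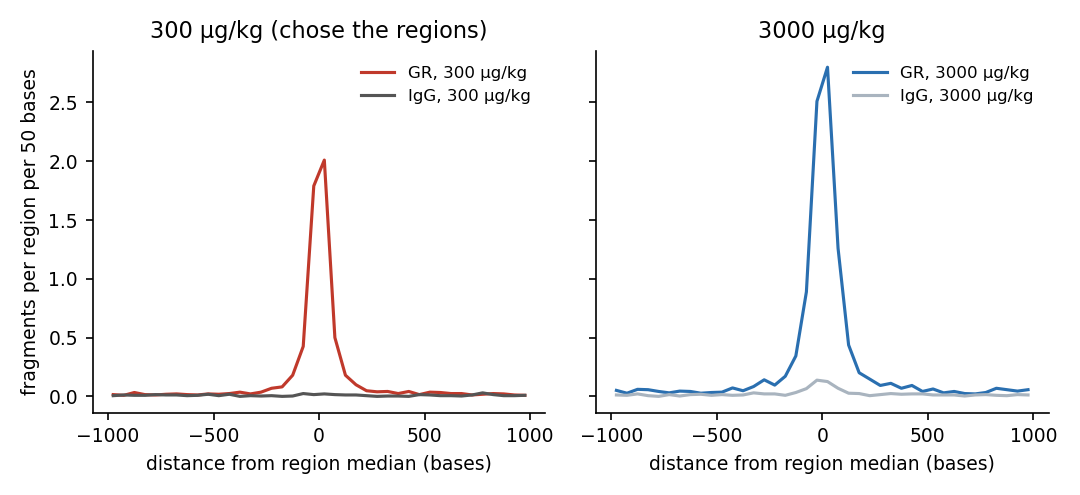
Mean number of fragments per region in 50-base bins (vertical axis) against the distance from the median fragment position of the 334 regions, for the libraries at 300 µg/kg (left), which chose the regions, and at 3000 µg/kg (right). GR fragments of both doses pile up within 100 bases of the centre (23.6 and 37.3 fragments per kb and region), and the IgG library at 3000 µg/kg has a low maximum there (1.99).

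Strands entered the counting of fragments but no balance of strands was asked of a region. Reads of both strands were present in 305 of the 334 regions (91.3%, 87.8 to 94.1%), against 32 of the 38 regions of the exchange (84.2%, 68.7 to 94.0%), with overlapping intervals. Plus-strand reads made up 48.7% of the 2588 reads (46.7 to 50.6%). The median minus-strand start lay 94.0 bases beyond the median plus-strand start over the 305 regions (quartiles 72.0 and 124). This order and distance were largely set by the counting, which merged pairs with the plus strand upstream by 50 to 140 bases and moved single reads 75 bases in their own direction, and they are no evidence of binding. With the reads of merged pairs left out the median was 154 bases in 119 regions, about the distance that the move of both strands gives by itself. Merged pairs made up 46.0% of the fragments in the regions and 22.7% of those of the whole library.

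A minority of the weak regions looked different. In 29 regions all GR reads lay on the same strand, and 28 of these held 4 fragments. Of the 29, 18 held 0 GR fragments at the high dose and 11 held more GR than IgG fragments there. In 15 regions the fragment centres lay within 20 bases of each other, 14 of them with reads of 1 strand, and all 15 held 0 GR fragments at the high dose. Leaving out the regions with reads of 1 strand or with centres this close left 304 regions, a filter chosen after these values were seen.

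The libraries at the high dose showed GR in most sites of the low dose. In the 334 regions they held 2876 GR and 162 IgG fragments, a ratio of 17.8 (15.2 to 20.9). Merging left 391072 GR and 337893 IgG fragments at the high dose, and scaled to these totals the ratio was 15.3 (13.1 to 18.1). The ratio was 9.86 (8.86 to 11.0) in regions chosen without any IgG library and 35.0 (27.4 to 45.6) in regions chosen against the IgG library of the high dose, which selects against its reads. More GR than IgG fragments were found in 282 regions (84.4%, 80.1 to 88.1%), equal numbers in 41 and fewer in 11. This count includes regions with as little as 1 GR fragment. At least 4 GR fragments, the minimum of the rule, were held by 233 regions at the high dose. Of all 500-base tiles of the chromosomes, 5.66% held more GR than IgG fragments at the high dose. In 47 regions the GR library at the high dose held 0 fragments, and the most that any of these held at the low dose was 6, at chr16:17846101-17846500, a region named after its values were seen. With every read counted in place of fragments, 54.1% of 1510 regions held more GR than IgG reads at the high dose.

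Stronger sites at the low dose more often held more GR than IgG fragments at the high dose. They also held more fragments of GR there, and of IgG. Of the 178 regions with 4 GR fragments, 73.0% (65.9 to 79.4%) held more GR than IgG fragments at the high dose, with means of 4.21 GR and 0.264 IgG fragments per region. Of the 88 regions with 5 to 6 fragments 95.5% did (88.8 to 98.7%), with means of 10.2 and 0.489. All 51 regions with 7 to 9 fragments did (93.0 to 100%), with means of 16.3 and 0.980, as did all 17 regions with 10 to 16 fragments (80.5 to 100%), with means of 23.6 and 1.29. The intervals of the first and second class did not overlap, and those of the upper 3 classes did. The ratio of GR to IgG at the high dose did not follow this order: it was 16.0 (11.9 to 21.9), 20.8 (15.3 to 28.9), 16.6 (12.5 to 22.6) and 18.3 (11.9 to 29.5) in this order of classes, with overlapping intervals.

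The IgG library of the high dose was itself denser in these sites. It held 162 fragments where an even spread over the chromosomes would have placed 17.2, a density 9.43 times the genome mean (8.04 to 11.0). For GR at the high dose the corresponding density was 145 times the mean (139 to 150.1). The IgG library at the low dose held 33 fragments against 18.5 at an even spread, 1.78 times the mean (1.23 to 2.50), a value held down by the rule that chose regions with little of this IgG. Regions called against the IgG library at the high dose in place of that at the low dose numbered 282.

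The occupied sites were spread over all chromosomes. On the autosomes there were 332 regions, 0.130 per Mb. Chromosome 19 had the highest density (13 regions, 0.220 per Mb), followed by chromosomes 10 and 20 (22 and 11 regions, 0.199 per Mb each) and chromosome 12 (9 regions, 0.192 per Mb). Chromosome 15 had the lowest among the autosomes, with 5 regions on 109.8 Mb (0.0456 per Mb). The X chromosome held 2 regions on 161 Mb. At the autosomal number per Mb it would have held 20.9, and at the autosomal number per IgG fragment 8.71. No test was made of these differences between chromosomes.

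All 4 libraries held fewer fragments on the X chromosome, of which males carry a single copy. Its density was 0.396 times that of the autosomes for GR and 0.418 times for IgG at the low dose, and 0.376 and 0.432 times at the high dose. GR relative to IgG at the low dose was lower on X than on the autosomes, with an odds ratio of 0.948 (two-sided Fisher's exact test on fragments, p = 3.18e-04). Of the 160 bins of 1 Mb on X, 158 were among the 549 bins of the genome with the fewest IgG fragments at the high dose. The 391 autosomal bins in that set gave 0.968 for GR over IgG (0.953 to 0.983), close to the 0.974 (0.946 to 1.00) of the X chromosome. The part of read density in the lower value on X was not tested further.

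On the scale of 1 Mb no single bin set GR apart from IgG when fragments were counted. A complete bin held a median of 141 GR and 137 IgG fragments, and the ratio of GR to IgG ran from 0.808 (5th percentile) over 1.02 (median) to 1.26 (95th percentile) in the 2612 bins with at least 100 fragments. By an exact binomial test of 2707 bins with Benjamini-Hochberg adjustment, 0 bins (0%) held more GR and 0 bins (0%) more IgG at an adjusted p of 0.05. At an unadjusted p under 0.05, 114 bins held more GR and 51 more IgG. With the test scaled to the fragment totals of both libraries, 81 bins held more GR and 96 more IgG. The lean towards GR in these numbers thus depended on the scale and is no sign of a broad excess of GR. For a single bin of median depth to be called by itself, 176 GR against 103 IgG fragments would have been needed, a ratio of 1.71, so that smaller differences were not detectable in a bin of that depth alone. With every read counted, 3 bins held more GR and 2 more IgG, and with bins of 2 Mb 2 held more GR and 0 more IgG.

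The bins of lowest p are given for the size of the differences. In chr1:226000001-227000000, which holds the second-ranked site and 2 further regions, 229 GR fragments stood against 152 IgG fragments (log2 ratio 0.590, exact binomial p = 9.39e-05, adjusted p = 0.222). Without the fragments of the regions the counts were 204 and 152. In chr2:236000001-237000000, with no region, they were 202 and 134 (adjusted p = 0.222, exact binomial), and at the high dose 173 and 153. The bins chr19:11000001-12000000 (226 and 159 fragments, 3 regions), chr17:83000001-84000000 (220 and 154, 1 region) and chr3:119000001-120000000 (240 and 171, 1 region) followed, each with an adjusted p of 0.350 (exact binomial). In the other direction the lowest p was that of chr2:75000001-76000000, where 82 GR fragments stood against 137 of IgG (log2 ratio -0.737, adjusted p = 0.222, exact binomial), with 93 and 88 at the high dose. The next 4 bins with more IgG, in chromosomes 16, 3, 4 and 15, had adjusted p from 0.443 to 0.536 (exact binomial) and held no region.

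The unevenness of the genome was largely common to both libraries. Across the 2710 complete bins GR and IgG fragments at the low dose had a Pearson correlation of 0.921 and a Spearman correlation of 0.914, given as a description, since all bins share the same genome, alignment and depth. The variance of the autosomal bins was 12.7 times their mean for GR and 9.92 times for IgG, compared with 23.1 and 8.30 times at the high dose. Leaving out the fragments in the regions changed the value for GR at the low dose only to 12.4. The log2 ratio of GR to IgG per bin at the low dose had a Pearson correlation of 0.259 (Spearman 0.244) with that at the high dose over the 2612 bins with at least 100 fragments at the low dose, which involves 4 different libraries.

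**Figure D4:**
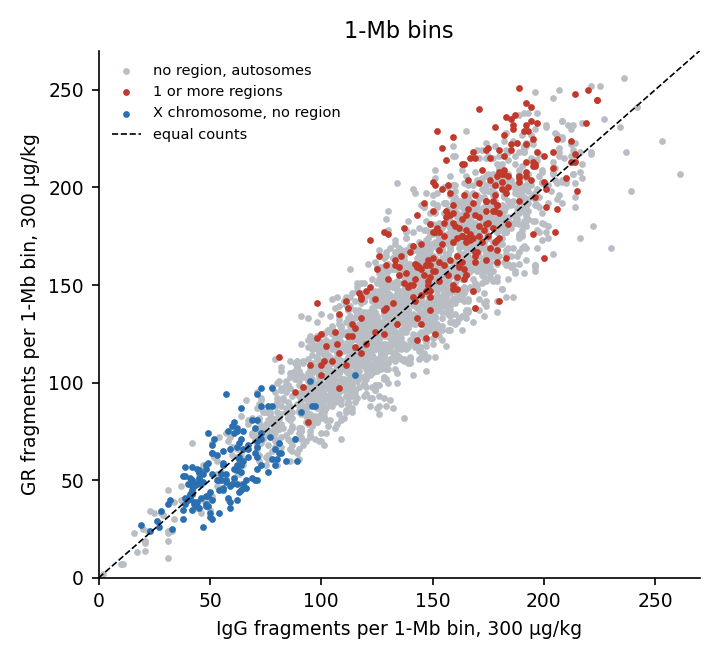
GR against IgG fragments at 300 µg/kg in each complete bin of 1 Mb; the dashed line marks equal counts. Bins lie along the line with a Pearson correlation of 0.921, bins with a called region (red) lie towards high counts of both libraries, and bins of the X chromosome (blue) towards low counts.

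Regions were found in bins rich in fragments of either library. Of the complete bins 2437 held no region, 227 held 1, 35 held 2, 9 held 3 and 2 held 4, so that 273 bins (10.1%) held all regions but the 2 outside complete bins. The bins with 4 were chr9:65000001-66000000 (188 GR and 177 IgG fragments) and chr20:6000001-7000000 (218 and 204), and in neither did the bin as a whole favour GR beyond counting error (exact binomial p = 0.601 and 0.527). The first of the 9 bins with 3 regions, chr1:118000001-119000000, held 218 GR and 168 IgG fragments (exact binomial p = 0.0125, adjusted p = 0.721). Outside the regions themselves, bins with no region held a mean of 133 GR and 131 IgG fragments at the low dose, and bins with 3 or more held 202 and 185. The ratio of GR to IgG outside the regions was 1.02 (1.01 to 1.02) in bins with no region and 1.06 (1.05 to 1.08) in bins with at least 1 (two-sided Fisher's exact test, p = 4.46e-10).

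The density of the background moved with this ratio. When bins were divided into 5 sets by the IgG fragments at the high dose, a library not in the ratio, the ratio of GR to IgG at the low dose outside the regions was 0.969 (0.956 to 0.982) in the 549 bins with 5 to 96 IgG fragments and 1.06 (1.05 to 1.07) in the 522 bins with 156 to 215. Of the regions, 13 lay in the former and 139 in the latter. Within the richest set the ratio was 1.09 (1.07 to 1.12) in the 97 bins with a region and 1.05 (1.04 to 1.06) in the 425 without. In the next set, with 138 to 155 IgG fragments, it was 1.04 (1.02 to 1.06) in 87 bins with a region and 1.03 (1.02 to 1.04) in 441 without, and these intervals overlapped. Bins with a region were also higher in the remaining sets, again with overlapping intervals. With 119 to 137 IgG fragments the ratios were 1.05 (1.01 to 1.08) and 1.01 (1.00 to 1.02). With 97 to 118 they were 1.04 (0.999 to 1.09) and 0.992 (0.980 to 1.00), and with 5 to 96 they were 1.01 (0.939 to 1.09) and 0.967 (0.954 to 0.981).

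Closer to the sites a small excess of GR reached beyond the regions. The bands of distance were chosen after seeing the data, and fragments inside any region were left out. From 5 to 20 kb away from region centres the GR library at the low dose held 2179 fragments and IgG 1856, a ratio of 1.17 (1.10 to 1.25; two-sided Fisher's exact test against the rest of the genome, p = 1.05e-05). From 20 to 100 kb it was 1.08 (1.05 to 1.11) and from 100 to 500 kb 1.04 (1.03 to 1.06), against 1.02 (1.02 to 1.03) over all of the genome outside the regions. From 1 to 5 kb it was 1.23 (1.09 to 1.38), but the rule that chose the regions used IgG to 5 kb from a window and thus favoured low IgG there. Leaving out also the fragments in the 3247 regions called by the same rule at the high dose gave 1.14 (1.07 to 1.21) from 5 to 20 kb. IgG at the low dose was itself 1.42 times as dense from 5 to 20 kb as in the genome, and GR 1.64 times. The part of background density in the ratio was not tested within these bands. It was 1.06 in the bins richest in IgG, as given above.

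**Figure D5:**
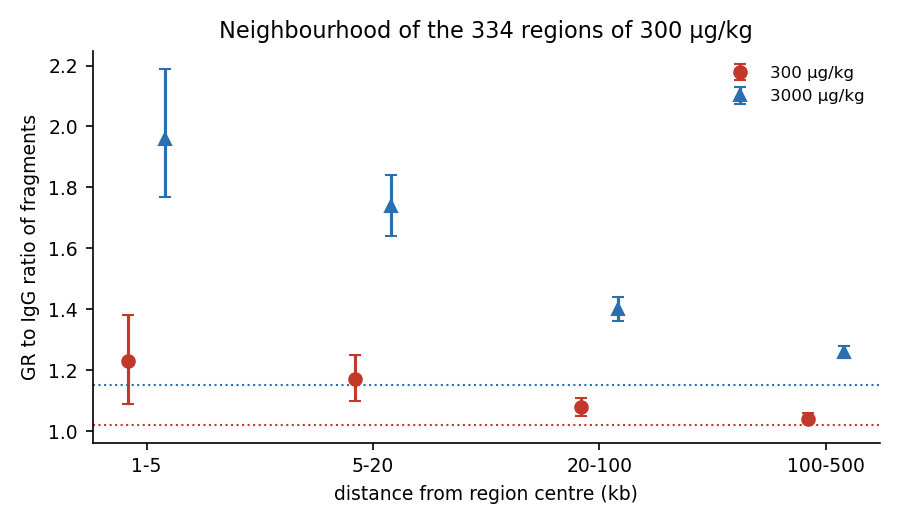
GR to IgG ratio of fragments (vertical axis) by distance from the centres of the 334 regions of 300 µg/kg, with exact 95% intervals, for the libraries of each dose; dotted lines mark the ratio over the genome outside the regions (1.02 at 300 µg/kg, 1.15 at 3000 µg/kg). At 300 µg/kg the ratio falls from 1.23 at 1 to 5 kb to 1.04 at 100 to 500 kb. Fragments in the 334 regions are left out at both doses, and those in regions called at 3000 µg/kg are not.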

How the data were processed

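Per the labels, the deposited files are alignments: the authors gave each read a line and a count of 1, and no other value was used. Every deposited file held the same number of reads; how the authors reached it is not described in these sources. Alignment was to rn4, and bedtools and MACS were among the tools, per the submitters' processing notes. The alignment software was not given in the sources used here, nor were versions and filters. Amplification (18 rounds) is described in the labels' protocols only for the libraries at 3000 µg/kg.

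Reads were merged to fragments as described, and single reads were moved 75 bases from the 5′ end. Windows of 300 bases were placed every 100 bases over 2718671228 bases, the sum of the highest read positions. Intervals are exact Clopper-Pearson 95% (Poisson for densities), and log2 ratios used a pseudocount of 0.5. PCR reads without molecular identifiers are not independent molecules, so intervals cover counting error only. Bins with under 20 fragments were not tested. Regions named are the 25 of lowest p with IgG at most 25% of GR, and bins the 5 of lowest p in each direction and the 3 with most regions. Members and rules were chosen with earlier results of these data known. Scripts (Python 3.11.15, numpy 2.4.6, scipy 1.17.1) were tested on simulated data with an even background. That test covered neither the uneven density of the genome nor the merging of pairs. A genome or annotation of rn4 was not used here, so regions carry neither gene names nor sequences, and response elements were not searched. Reads on the mitochondrial genome and unplaced sequences were left out.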

Additional observations from a re-analysis of the deposited data

Results flagged for a closer look

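The ratio of GR to IgG around the low-dose regions, relative to the rest of the genome, differed between the doses in all 4 bands of distance (Zelen's exact test of equal odds ratios on fragments, two-sided). From 1 to 5 kb it was 1.71 at 3000 µg/kg and 1.20 at 300 µg/kg (exact p = 1.19e-05). From 5 to 20 kb it was 1.51 and 1.15 (exact p = 3.13e-10), from 20 to 100 kb 1.22 and 1.06 (exact p = 2.07e-11), and from 100 to 500 kb 1.10 and 1.02 (exact p = 6.97e-12). At both doses only the fragments in the 334 low-dose regions were left out. Those in the 3247 regions called at the high dose stayed in the bands here, and their part in the difference was not tested. With 1 library per group, the dose and the preparation of the libraries cannot be told apart.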

How the results depend on the processing

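Of 64 values under other settings, 40 stayed within their limits. Counting every read gave 1510 regions and 954 in the exchange (63.2%), and 54.1% of regions with more GR than IgG at 3000 µg/kg. It also gave 3 bins with more GR and 2 with more IgG, and a variance to mean of 16.7 for GR and 13.4 for IgG. A p threshold of 1e-07 gave 125 regions, 10 in the exchange and a share of 99.2%. At least 6 fragments gave 94 regions, 13 in the exchange and 97.9%. Windows of 600 bases gave 86 regions in the exchange and a ratio of 13.2 at 3000 µg/kg. The IgG library at 3000 µg/kg as background gave a ratio of 35.0, which selection against that library raises, and no IgG gave 9.86 and a share of 79.4%. Chosen after seeing the data, regions of 5 or more fragments gave 97.4%, and leaving out narrow and single-strand regions 89.1%. Single reads alone gave a strand distance of 154 bases. Bins of 2 Mb gave 2 bins with more GR and a variance to mean of 18.7 for GR and 14.3 for IgG. Where no construction is named, the cause was not tested. The X chromosome result held under both alternatives (odds ratios 0.954 and 0.951). No paired analysis was possible because each group held 1 library.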

Other observations

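In the exchange, 38 regions held more IgG than GR after 300 µg/kg. They held 237 IgG and 31 GR fragments at the low dose, and 124 IgG and 30 GR fragments at the high dose, with more IgG in 18 regions and more GR in 5. Of them, 22 held 4 IgG fragments and 9 held at least 9. The strongest, named after its values were seen, lay at chr9:52167601-52168300 and held 22 IgG and 0 GR fragments at the low dose, and 13 IgG and 3 GR fragments at the high dose. The region chr5:3645901-3646400, also named after its values were seen, held 9 IgG and 0 GR fragments at the low dose, and 12 and 0 at the high dose.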
